A study of Mus musculus with 2 samples.

Results

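Globins are small haem proteins that bind oxygen. The 8 genes described here were chosen by name from the 55536 gene entries: the adult alpha globin copies Hba-a1 and Hba-a2, the adult beta globin copies Hbb-bs and Hbb-bt, Alas2, which encodes the erythroid enzyme that starts haem synthesis, and the tissue globins Ngb (neuroglobin), Cygb (cytoglobin) and Mb (myoglobin). All 8 had counts in every library. They were measured by stranded total RNA sequencing of left cerebral cortex from a pair of males of strain B6CASTF1/J, an F1 hybrid of B6 and Cast, at an adult age of 8 to 10 months. The labels number the animals 2 and 4 and call them replicate 1 and replicate 2 of 1 group, so no condition was compared and no test was made. Both carry the same donor label, so the animal numbers alone separate them, and ± marks the SD over these 2 libraries throughout (n = 2). Each library was made from 300 ng of RNA with reduced ribosomal RNA and added ERCC spike-ins. The libraries held 26925514 and 30143684 expected counts, of which 24688669 and 27440152 were assigned to genes other than ribosomal RNA.

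Adult haemoglobin is built from alpha and beta chains and fills red blood cells, so its RNA in brain tissue is commonly read as RNA of blood in the vessels, although low haemoglobin expression in some neurons and glia has been described. Alas2 is the form of aminolevulinate synthase used by maturing red cells, and its paralogue Alas1 serves other tissues. Neuroglobin is found in some neurons, cytoglobin in fibroblasts, vessel-associated cells and certain neurons, and myoglobin in heart and skeletal muscle. In bulk tissue, fewer cells of a type and less RNA per cell cannot be told apart.

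The alpha copies lie on chromosome 11 and the beta copies on chromosome 7. Within each pair the annotated coding sequences were almost the same, and the single difference is shown because it limits what can be said of each copy. Hba-a1 and Hba-a2 shared all but 1 of 429 coding bases (99.77% identity), and the difference was C381T, counted from the first coding base, with the base of Hba-a1 first. Hbb-bs and Hbb-bt shared all but 1 of 444 coding bases (99.77%), and the difference was C417T, with the base of Hbb-bs first. Both fell in exon 3 of 3, at the third base of codons 127 and 139. The 41 coding bases around each difference, on mm10 with the GENCODE M21 annotation, read as follows on the strand of the gene, with the differing base in capitals. The windows are chr11:32284323-32284363 (plus strand), chr11:32297140-32297180 (plus strand), chr7:103826672-103826712 (minus strand) and chr7:103812663-103812703 (minus strand), in the order shown.
Hba-a1: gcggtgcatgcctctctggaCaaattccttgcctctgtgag
Hba-a2: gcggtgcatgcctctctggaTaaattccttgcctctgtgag
Hbb-bs: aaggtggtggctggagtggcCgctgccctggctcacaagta
Hbb-bt: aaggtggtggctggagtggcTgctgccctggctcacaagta

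Outside the coding part the copies differed more in the annotation. Hba-a1-201 was annotated with 699 bases, 196 of them before the coding part, and Hba-a2-201 with 554 bases, 35 of them before it. Of all 100-base stretches of Hba-a1-201, 56.5% also occurred exactly in Hba-a2-201, and 74.51% of those of Hba-a2-201 occurred in Hba-a1-201. That left 162 bases of Hba-a1-201 and 17 bases of Hba-a2-201 outside any shared stretch. For the beta pair, 62.57% of the stretches of Hbb-bs-201 and 54.8% of those of Hbb-bt-201 were shared, which left 198 and 273 bases outside them. A read that falls inside a shared stretch gives no letters by which to choose a copy.

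**Figure D1:**
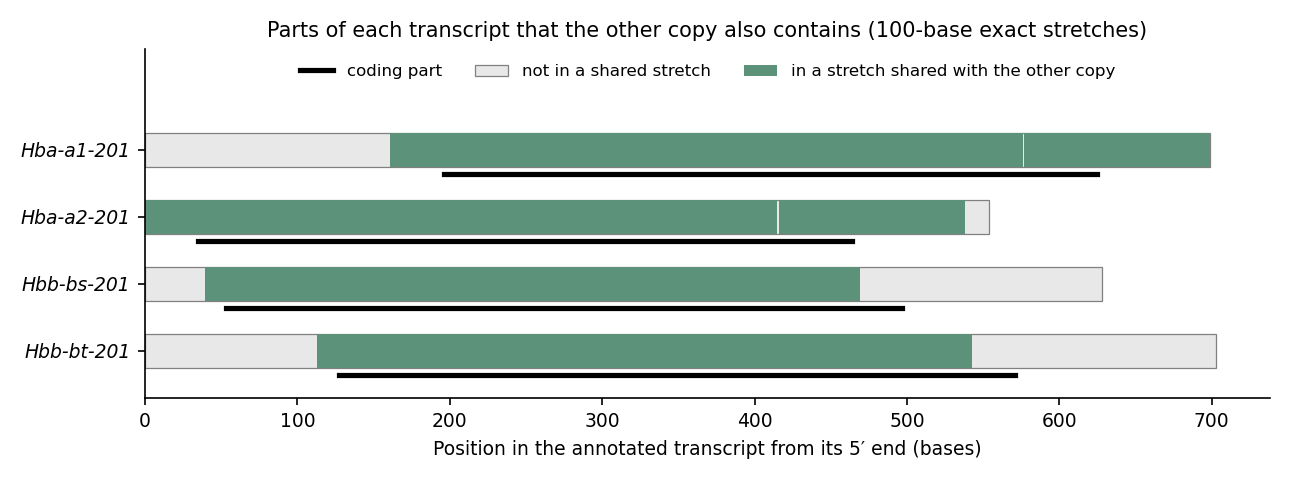
Each bar is an annotated transcript drawn to its length in bases from the 5′ end, with the parts covered by 100-base stretches that the other copy of the pair also contains in green, the rest in grey and the coding part as a black line. Nearly the whole of Hba-a2-201 lies in shared stretches (17 bases do not), while 198 and 273 bases of the beta copies lie outside them, mostly at the ends. A base outside a stretch need not differ: 416 of 444 beta coding bases lie in shared stretches, yet only 1 differs.

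The beta promoters were less alike than the alpha promoters. The comparison covered the 120 bases before the RefSeq start (build GRCm38.p6). There the alpha copies were identical over all 117 bases that align with an offset of 3. The beta copies matched at 88 of 119 bases (73.95%), against 45 of 118 (38.14%) for Hba-a1 with Hbb-bs. Short motifs known from globin promoters were searched on both strands, and matches of different motifs did not overlap in these windows. All 4 haemoglobin windows held the CACCC box, found in 31.71% of 32851 promoter windows of the same length, the CCAAT box, found in 21.29%, and the TATAA element, found in 11.85%. CACCC was not limited to these genes: the Alas2 window, on the reverse strand, and some of the Mb windows held it too. Hbb-bt held CACCC at 2 places and CCAAT at 3, where Hbb-bs held each at 1. The last motif searched, GATAA, was in the Alas2 window, on the reverse strand, and in 10.5% of all windows. In GENCODE M21, all 120 bases of the Hba-a1 window lie inside the annotated first exon of Hba-a1-201, against 3 bases of the Hba-a2 window in that of Hba-a2-201. The stretch before the start of Hbb-bs that lies in no annotated exon of the gene, chr7:103827929-103828011 on the minus strand, is shown as the example, with its CCAAT box and its TATAA element in capitals.
Hbb-bs promoter: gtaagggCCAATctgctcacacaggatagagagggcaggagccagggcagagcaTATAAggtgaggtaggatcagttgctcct

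The levels are given as TPM, an abundance per transcript length on a scale with the same sum in each library, from the authors' quantification based on alignments to the transcriptome (the first quantification). A second quantification made from the reads is set beside it. In the first, the adult haemoglobin genes other than Hbb-bt led the 8 genes, followed by Cygb, Hbb-bt, Ngb, Mb and Alas2. The ranges of Hba-a1, Hbb-bs and Hba-a2 overlapped, as did those of Mb and Alas2, so the order within these sets is not resolved, and the library values of every other neighbouring pair were separate. The order of Ngb and Mb is no firmer: in replicate 2 their deposited TPM bounds overlapped, at 3.98 to 5.67 for Ngb and 3.86 to 6.61 for Mb, and in the second quantification Ngb was 6.55 times Mb in replicate 1 and 0.782 times Mb in replicate 2. Among 22028 protein-coding genes ranked by mean TPM, Hba-a1 stood at rank 443, Hbb-bs at 445, Hba-a2 at 532, Cygb at 4471, Hbb-bt at 7223, Ngb at 10638, Mb at 11862 and Alas2 at 12176.

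**Figure D2:**
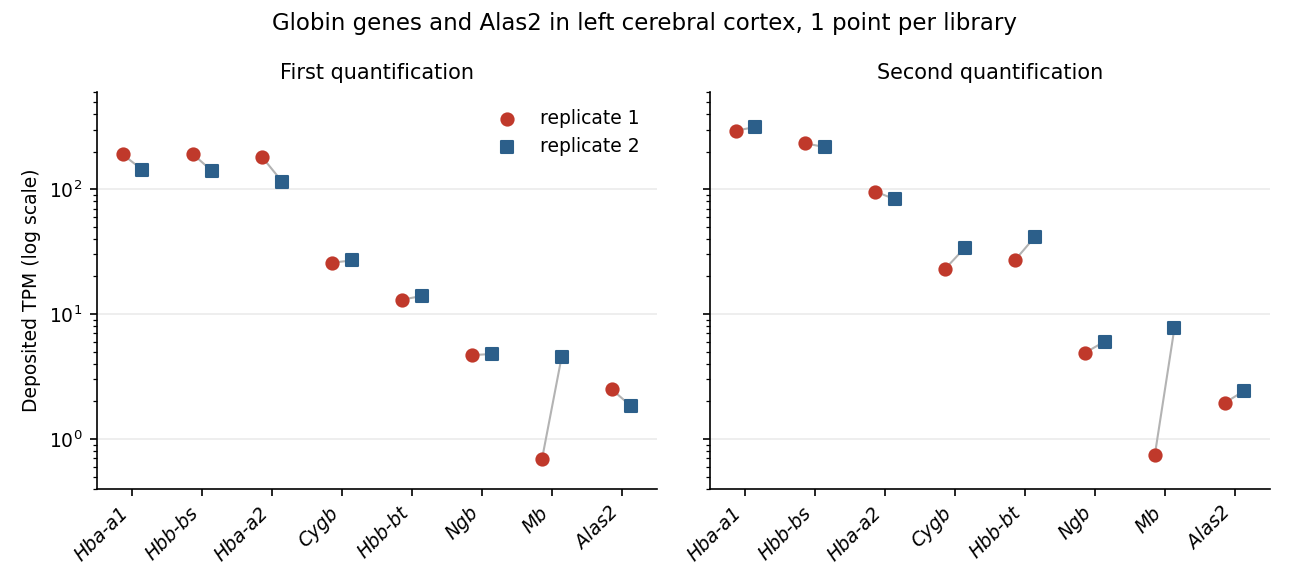
Deposited TPM (log axis) of each gene, with 1 circle for replicate 1 and 1 square for replicate 2, in the first (left) and second (right) quantification. Haemoglobin genes other than Hbb-bt lie above 80 TPM in both panels, and Mb is the gene whose libraries lie farthest apart, at 0.69 and 4.51 TPM in the first quantification.

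Among the alpha chains, Hba-a1 (chr11:32283511-32284465, plus strand) had 189.6 TPM in replicate 1, against 143.4 in replicate 2 (mean 166.5 ± 32.65). Hba-a2 (chr11:32296489-32297298, plus strand) had 179.6 and 115.2 TPM (mean 147.4 ± 45.55). Both copies were higher in replicate 1. Summed over the copies, which for counts does not depend on how reads were split, alpha globin had 3342 and 2591 expected counts in replicates 1 and 2. Its summed level was 369.2 and 258.6 TPM in replicates 1 and 2 (313.9 ± 78.21).

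Of the beta chains, Hbb-bs (chr7:103826534-103828096, minus strand) had 192.1 TPM in replicate 1, against 139.4 in replicate 2 (165.7 ± 37.27). Hbb-bt (chr7:103812524-103813996, minus strand) had 13.07 and 13.94 TPM (13.5 ± 0.615). Hbb-bs was higher in replicate 1, and the Hbb-bt values lay close together. The beta sum was 1923 and 1564 expected counts, and 205.2 and 153.3 TPM (179.2 ± 36.66). Of the other globin genes and pseudogenes, 8 had no count in either library: Hba-x, Hbb-bh0, Hbb-bh1, Hbb-bh2, Hbb-bh3, Hbb-y, Hba-ps3 and Hba-ps4. There 3 counts, the limit that a count of 0 allows, are 0.122 and 0.109 CPM (counts scaled to a common library size). The theta globin copies Hbq1a and Hbq1b had 8.29 and 3.71 counts in replicate 1, against 3 and 0 in replicate 2. Adgb, androglobin, had 19 and 16.

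The alpha genes together stood above the beta genes by a similar factor in both animals. The ratio of alpha to beta TPM was 1.8 in replicate 1 and 1.69 in replicate 2 (1.74 ± 0.0798), and in counts it was 1.74 and 1.66. In the second quantification the TPM ratio was 1.5 and 1.54 (1.52 ± 0.0289), which is lower than both values of the first. All 4 genes together took 0.0213% of the counts of replicate 1, from 5265 counts, with a 95% interval (exact binomial) of 0.0208 to 0.0219%. In replicate 2 they took 0.0151%, from 4155 counts (0.0147 to 0.0156%). Such intervals cover counting error only.

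How the counts were divided between copies depended on the quantification. The first gave Hba-a1 57.1% and 61.4% of the alpha counts in replicates 1 and 2, and the second gave it 80.7% and 84.3%. Hbb-bs received 92.8% and 89.7% of the beta counts in the first and 86.7% and 81.5% in the second. Hba-a1 and Hba-a2 were therefore at 1.06 and 1.25 to 1 by TPM in the first and at 3.07 and 3.78 to 1 in the second. The deposited posterior SD of the expected count, which measures how uncertain the assignment was, was 47 and 47.47 counts for each alpha copy and 12.79 and 13.19 counts for each beta copy in replicates 1 and 2. It was 0 for Alas2, Ngb, Cygb and Mb. In the first quantification the expected counts of the copies were fractional and their sums were whole within 0.01 counts. Hba-a1-202, a short transcript annotated as a retained intron, held 13.3% and 9.73% of Hba-a1 in the first quantification, against 16.8% and 0% in the second, and Hbb-bs-203 held none of Hbb-bs in the first and 16.3% and 0% in the second. Reads from the Cast chromosomes were assigned against the mm10 reference, and their part in the split was not tested.

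**Figure D3:**
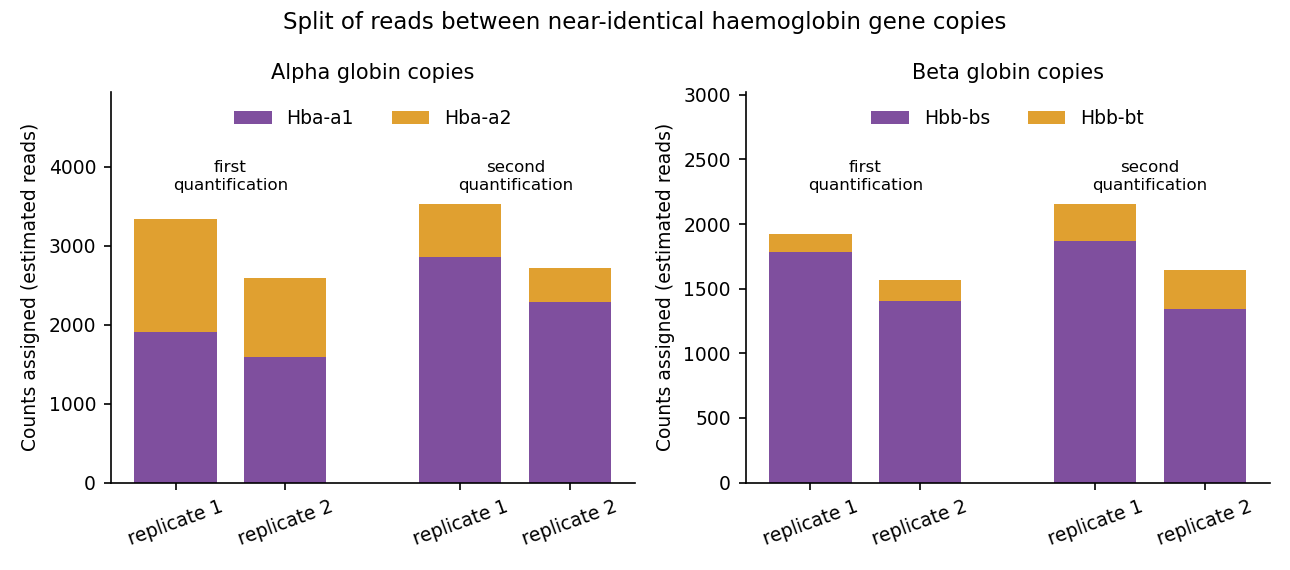
Bars give the counts assigned to each alpha copy (left) and beta copy (right), stacked, for replicate 1 and replicate 2 in each quantification. The height of a bar is close between quantifications (3342 and 3536 alpha counts in replicate 1) while the division moves, with Hba-a1 at 57.1% in the first and 80.7% in the second.

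Replicate 1 held more haemoglobin RNA than replicate 2. The log2 ratio of replicate 1 over replicate 2, taken from CPM after TMM scaling and with 2 as the prior count, was 0.51 for the 4 genes summed, a 1.42-fold difference (counting interval 1.37 to 1.48). The alpha sum differed 1.45-fold (1.38 to 1.53) and the beta sum 1.38-fold (1.29 to 1.48). To place this, among the 14169 genes that averaged 50 or more normalised counts the median absolute log2 ratio was 0.108 (1.08-fold) and the 90th percentile 0.372 (1.29-fold), and 5.12% of these genes lay at least as far from 0 as summed haemoglobin. By gene the log2 ratio was 0.43 for Hba-a1, 0.69 for Hba-a2, 0.51 for Hbb-bs and -0.04 for Hbb-bt (0.97-fold, 0.767 to 1.22). With the second quantification's counts the sum differed 1.47-fold, with 4.67% of genes at least as far.

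The deposited TPM of the second quantification did not show this difference. There, summed haemoglobin stood at 650 TPM in replicate 1, against 655.4 in replicate 2. In that quantification misc_RNA, a class of short noncoding RNAs, took 38.4% of TPM in replicate 1 and 11.5% in replicate 2. With ribosomal RNA and misc_RNA left out and TPM rescaled, the sums were 1232.9 and 884.6 TPM, a 1.39-fold difference.

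Alas2 (chrX:150547375-150570638, plus strand) had 82 counts in replicate 1 and 58 in replicate 2, or 2.49 and 1.82 TPM (2.16 ± 0.474). Its difference, 1.57-fold (1.12 to 2.26), had the same direction as that of haemoglobin, and 2.6% of genes lay at least as far from 0. The deposited TPM bounds of the library values, 2.17 to 3.7 in replicate 1 and 1.47 to 2.93 in replicate 2, overlapped. That direction depends on the unit: the second quantification gave 79 and 55 counts but 1.94 and 2.43 deposited TPM, a log2 ratio of -0.32, and 3.69 and 3.28 TPM after rescaling, a log2 ratio of 0.17. Summed haemoglobin was 230.7 and 226.3 times Alas2 by TPM in replicates 1 and 2 of the first quantification, and 334.4 and 269.4 times in the second. By counts it was 64.2 and 71.6 times in the first and 72.1 and 79.3 times in the second, so which animal had the higher ratio depends on the unit. Transcript Alas2-201 held 54% and 30.4% of the gene and Alas2-202 46% and 56.8% in the first quantification, with 12.8% in Alas2-204, a processed transcript, in replicate 2. In the second, Alas2-201 held 69.1% and 65.2% and Alas2-202 30.9% and 0%, and Alas2-204 0% and 34.8%, so which transcript led in replicate 2 depends on the quantification. The gene Apex2, which encodes a DNA repair nuclease, overlaps 23264 bases of Alas2 on the opposite strand and had 298 and 358 counts. This overlap is the whole annotated span of Alas2, introns included. In the first quantification the Alas2 counts were whole, with a deposited posterior SD of 0 in both libraries. No counted read was therefore split there between Alas2 and another gene. The strand setting of the counting was not given in the sources used here, and whether RNA of Apex2 entered the Alas2 counts was not tested.

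Cygb (chr11:116645595-116654313, minus strand) was the highest of the tissue globins, with 1013 counts in replicate 1 and 1147 in replicate 2, or 25.81 and 26.86 TPM (26.34 ± 0.743). The animals differed 0.992-fold (0.911 to 1.08), and 93.8% of genes lay at least as far from 0. Its only annotated transcript held all of its reads. It stood 5.5 and 5.61 times above Ngb by TPM (5.56 ± 0.0738). In the second quantification Cygb lay below Hbb-bt after rescaling, at 43.73 and 45.66 against 51.38 and 55.69 TPM, so the order of these neighbours depends on the quantification. Prcd, on the opposite strand, overlaps 780 bases of Cygb and had 42 and 37 counts.

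Ngb (chr12:87097531-87102539, minus strand) had 125 counts in replicate 1 and 135 in replicate 2, or 4.69 and 4.79 TPM (4.74 ± 0.0707). The 2 libraries were nearly equal, with a 1.04-fold difference (0.809 to 1.34). All Ngb counts of replicate 1 went to transcript Ngb-201, against 60.1% in replicate 2, where Ngb-203 took 34% and Ngb-202 5.88%. The second quantification gave Ngb-201 81.5% and 55.2%, Ngb-202 18.5% and 9.59%, and Ngb-203 0% and 35.3%. With 125 and 135 counts per gene these shares rest on few reads. The 10 genes of the pan-neuronal list, led by Snap25, summed to 4364.5 and 4663.4 TPM and had a median log2 ratio of -0.03.

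Mb (chr15:77015487-77050670, minus strand) went the other way. It had 10 counts in replicate 1 and 73 in replicate 2, or 0.69 and 4.51 TPM (2.6 ± 2.7). The libraries did not overlap in their deposited TPM bounds, which were 0.669 to 2.22 in replicate 1 and 3.86 to 6.61 in replicate 2. The log2 ratio was -2.49, so that Mb was 5.63-fold higher in replicate 2 (counting interval 3.34 to 14.1, without the prior count). The second quantification gave 11 and 80 counts and a log2 ratio of -2.50. The genes that overlap Mb on the opposite strand had few counts, 5 and 5 for Gm49540 and 2 and 3 for Apol6. The transcripts varied between quantifications: Mb-203 held 0% and 42.9% of the gene in replicates 1 and 2 in the first, and 0% and 17.8% in the second. In replicate 1 the shares of Mb transcripts rest on 10 counts.

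How unusual such differences were in these libraries was read against all genes. Of the 14169 genes above, 0.861% differed at least 2-fold, 0.55% with replicate 1 higher and 0.311% with replicate 2 higher. Of the 8 genes, 7 reach this mean, and 0 of these differed by 2-fold. With a minimum of 10 counts, which Mb also reaches, 3.43% of 18214 genes differed at least 2-fold and 1.79% were higher in replicate 2. Mb was the 1 gene of the 8 to do so, and 0.417% of those genes lay at least as far from 0. In the second quantification 0.958% of the 15039 genes that averaged 50 or more counts differed at least 2-fold, and 0 of the 7 genes that reach it did.

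**Figure D4:**
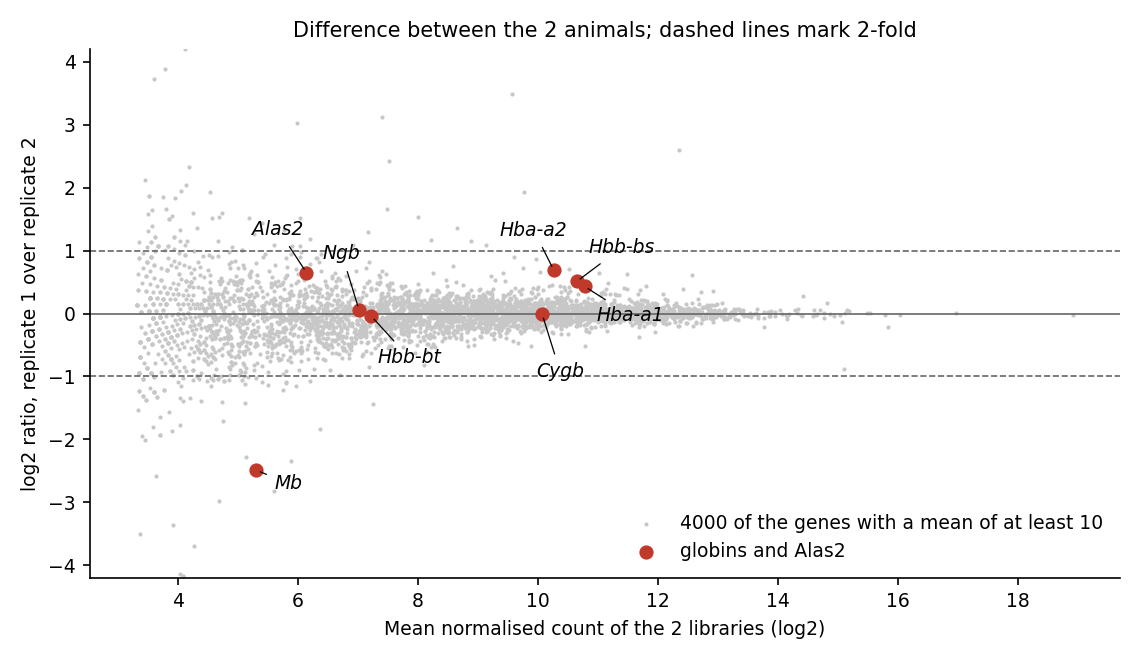
Log2 ratio of replicate 1 over replicate 2 against the mean normalised count (log2) for a sample of 4000 genes that averaged 10 or more (grey; 14 lie beyond the vertical range of ±4.2) and for the 8 genes (red), with dashed lines at 2-fold. The 3 abundant haemoglobin genes and Alas2 sit above 0 at 0.43 to 0.69, Ngb, Hbb-bt and Cygb sit near 0, and Mb sits at -2.49.

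Other genes of red cells were counted from a list of their structural, transcription and iron uptake genes. Of 25 red-cell genes in the annotation, 12 reached a mean of 1 TPM, among them genes that neurons also express, with Bnip3l at 106 ± 1.06 and Mkrn1 at 58.3 ± 0.247 TPM. The other 13 summed to 24 counts in replicate 1 and 53 in replicate 2, of which the single gene Ermap gave 16 and 38. Slc4a1, the anion exchanger of the red cell membrane, had 4 and 9 counts, Klf1 1 and 1, and Gata1 0 and 1. Of the 13 genes that averaged 10 or more counts, 6 were higher in replicate 1 and 7 in replicate 2, with 0 past 2-fold. Their median log2 ratio was -0.02, against -0.01 over all genes at that minimum, 48.7% of which were higher in replicate 1. Tfrc, the transferrin receptor, had 21.71 and 32.6 TPM, lower in replicate 1.

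Genes of haem synthesis other than Alas2 differed little between the animals. All 12 listed genes of the pathway stood above 1 TPM, with 6 higher in each animal, 0 past 2-fold, and a median log2 ratio of 0.01. Alas1, the form of the first enzyme used outside red cells, had 59.23 and 62.57 TPM and stood 23.8 and 34.4 times above Alas2 by TPM in replicates 1 and 2. In the second quantification this ratio was 28 and 26.7 by TPM and 14.7 and 24.8 by counts. Which animal had the higher ratio therefore depends on the quantification and the unit. Fech, ferrochelatase, which inserts the iron, had 32.28 ± 0.75 TPM, the mitochondrial carrier gene Slc25a39 31.33 ± 2.65, and Abcb10, the lowest, 8.91 ± 0.0354. Of the haem handling genes, 7 of 10 that averaged 10 or more counts were higher in replicate 1, with a median of 0.11 and 0 past 2-fold. Lrp1, a receptor that takes up haem bound to haemopexin, led at 153.9 ± 1.58 TPM, followed by Slc48a1 at 78.12 ± 7.15 and Hmox2 at 44.58 ± 0.601, and Hpx, haemopexin, was lowest at 0.21 ± 0.0849. Of the oxygen-sensing genes, 7 of 15 were higher in replicate 1, with a median of -0.02. Bnip3 led at 64.09 ± 2.64 TPM, ahead of Epas1 at 44.31 ± 0.304 and Egln2 at 43.02 ± 3.69, and Epo, erythropoietin, had no count in either library.

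Genes of other blood cells were near 0. The 10 platelet genes summed to 4.79 TPM in replicate 1, against 3.23 in replicate 2: Pf4 had 12 and 6 counts, Itga2b 18 and 26, Ppbp 12 and 3, and Gp1ba none. Of the 15 white cell genes only Ighm, an immunoglobulin gene, exceeded 1 TPM, at 9.96 and 11.41 TPM, and Cd3e had 0 and 2 counts and S100a8 1 and 1. Endothelial genes summed to 182.4 and 182.6 TPM, led by Slc2a1 at 43.49 ± 5.28, and Tek was lowest at 4.82 ± 1.12, and their median log2 ratio was 0.04. Vessel wall (mural) genes, led by Vtn at 34.43 ± 2.01 TPM, summed to 82.19 and 86.04 TPM, with a median of -0.13. Fibroblast genes, led by Igf2 at 53.35 ± 14.7 TPM, summed to 116.6 and 102 TPM, with a median of -0.03. Igf2 alone had 63.75 and 42.95 TPM, while 6 of the 10 fibroblast genes were higher in replicate 2. Interneuron genes had a median of -0.05, with Gad1 at 245.4 ± 24.3 TPM.

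Striated muscle and choroid plexus were the lists whose medians lay farthest from 0. Of 24 striated muscle genes, 23 were higher in replicate 2, as Mb was, and 17 passed 2-fold. Among the 23 were Tnni1, Myh7 and Tnnt2, with log2 ratios of -0.00, -0.04 and -0.23 and counting intervals that include 1-fold. Their median log2 ratio was -1.31, and their levels summed to 44.38 TPM in replicate 1, against 95.33 in replicate 2. Tnnt3, fast troponin T, had 17 and 106 counts and the lowest log2 ratio of the list, -2.35, Mylpf 10 and 63, and Ttn (titin) 537 and 1890, while Tnnt1 alone was higher in replicate 1, with 80 and 49. Myh1 was lowest, at 0.14 and 0.39 TPM. The most abundant were Acta1 at 5.24 and 11.41 TPM and Tnnc1 at 5.49 and 8.94 TPM. Mb, at -2.49, lay just beyond the range of the list, but its counting interval of -3.82 to -1.74 includes the -2.35 of Tnnt3. The part of muscle RNA in the level of Mb was not tested.

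The choroid plexus genes were higher in replicate 1, as haemoglobin and Alas2 were. All 10 passed 2-fold, their median log2 ratio was 4.45, and their levels summed to 752.4 TPM in replicate 1, against 7.67 in replicate 2. Kl (klotho) had 9.39 and 1.6 TPM, Sostdc1 9.26 and 0.28 TPM, and Ttr (transthyretin) 711.18 and 2.4 TPM, and Kcne2, the lowest, had 65 and 0 counts. Their part in the difference in haemoglobin was not tested. Hypothalamic genes summed to 9.64 and 9.25 TPM.

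**Figure D5:**
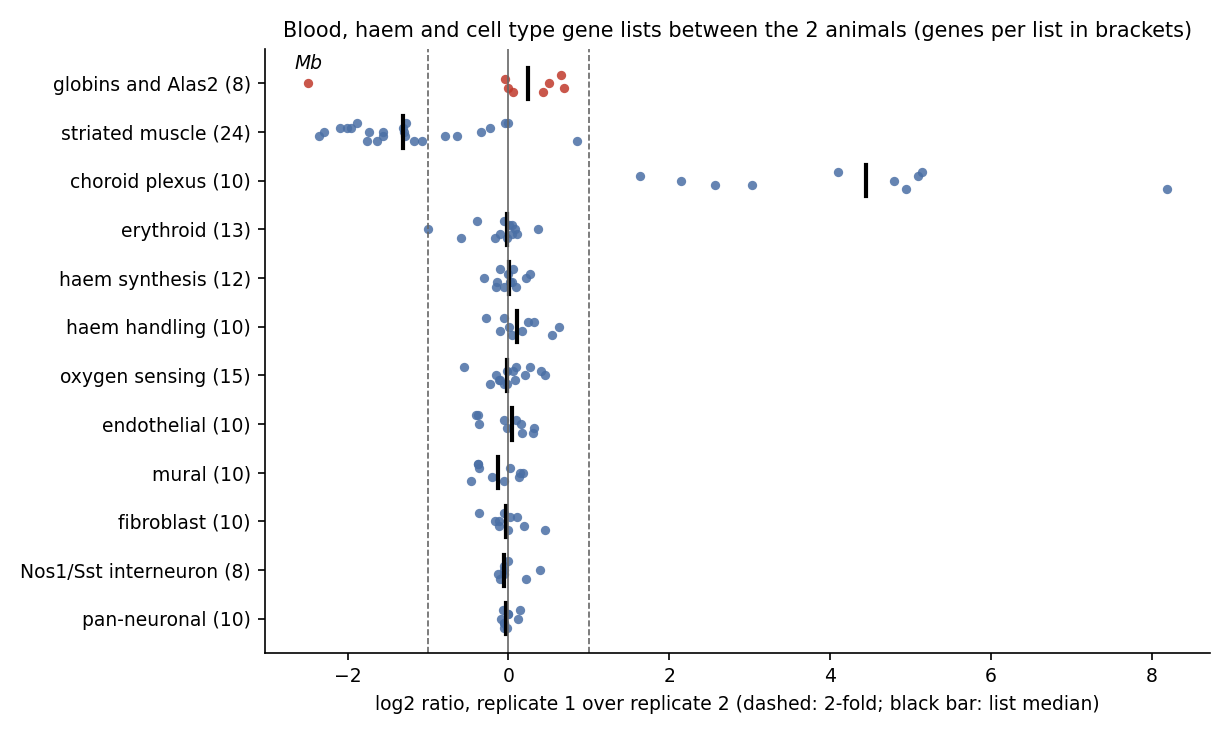
Log2 ratio of replicate 1 over replicate 2 for each gene that averaged 10 or more normalised counts, by list (genes per list in brackets), with the list median as a black bar and dashed lines at 2-fold. Striated muscle lies left of 0 with a median of -1.31, as does Mb, choroid plexus lies right of 0 with a median of 4.45, and the medians of the erythroid, haem, vessel and neuronal lists lie between -0.13 and 0.11.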

How the data were processed

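Total RNA of left cerebral cortex was profiled in 2 libraries. The authors deposited, per the file headers, gene and transcript tables with expected counts, TPM, FPKM, each transcript's percent of its gene, and posterior SDs and bounds (of a level not stated), on mm10 with the GENCODE M21 annotation. Second deposited transcript tables hold estimated counts and TPM, which were summed by gene; 86 gene entries have none there. Programs and strand setting were not given in the sources used here.

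Library sizes exclude spike-ins, tRNA entries and 356 genes of ribosomal RNA. Log2 ratios used expected counts rounded to whole numbers for library sizes, edgeR 4.0.16 TMM factors and a prior count of 2. Shares and count ratios have exact 95% binomial intervals, for counting error only. Alternatives were DESeq2 1.42.0 size factors, spike-in scaling, a prior count of 0.5, other filters, FPKM, TPM ratios, rescaled TPM, the second quantification and single animals. On simulated data with a coefficient of variation of 0.1, 200 of 200 genes changed 4-fold and 188 of 200 changed 2.5-fold were recovered past 2-fold, with 3 and 5 of 13969 unchanged genes also past it. With a coefficient of 0.2, 197 and 160 were recovered, with 296 and 288 unchanged genes, more than the 122 genes observed past 2-fold. Those 122 genes averaged 50 or more normalised counts, a minimum that Mb, at 39.81, does not reach, so these rates are not applied to Mb. Promoters are from RefSeq (6 of the 8 genes matched) and transcripts from GENCODE. R 4.3.3, Python 3.11.15, numpy 2.4.6, pandas 2.3.3, scipy 1.17.1 and matplotlib 3.10.9 were used.

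The 8 genes and the 15 gene lists were chosen with earlier results of these data known. Named were the 8 genes, other globins, and of each list up to the 3 members with the highest mean TPM and the lowest. Muscle and red-cell genes of 1 TPM or more were named freely. Ermap, Slc4a1, Klf1 and Gata1 were named after their values were seen. A few genes under this rule are not reported here. No gene was named for likeness to another, since 2 libraries give 1 ratio per gene.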

Additional observations from a re-analysis of the deposited data

How the results depend on the processing

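The summed haemoglobin log2 ratio of 0.51 was 0.58 with spike-in scaling, which shifts the median of all genes by 0.07, and 0.48 to 0.55 with DESeq2 size factors, a prior count of 0.5, TPM or the second quantification's counts. With the second quantification's deposited TPM it was -0.01, and 0.48 once ribosomal RNA and misc_RNA were left out; both of these were chosen after seeing the data. On that deposited TPM the ratios of Hba-a1 and Alas2 were -0.10 and -0.32, and that of Alas2 was 0.17 once rescaled. The 122 genes past 2-fold became 624 with a minimum of 10 counts and 2895 with none, since genes with fewer counts enter, and 121, 128 and 144 under DESeq2 size factors, spike-in scaling and the second quantification. The alpha to beta ratio of 1.74 was 1.52 in the second quantification (the cause was not tested), 1.7 in counts, and 1.69 to 1.8 with each animal alone. Of the other values, 32 moved and 135 did not, FPKM left aside as a change of unit. By over 1 SD, 13 levels and 6 transcript shares moved. In addition, 10 log2 ratios left their counting interval, and 3 list medians left their list's quartiles, all 3 with spike-in scaling. The 135 include levels of each animal alone, which with 2 libraries always lie within 1 SD of the mean and so could not move. Of the level settings that could move, only Alas2 and Mb in the second quantification and rescaled Mb did not. Mb rests on 10 and 73 counts, Alas2 on 82 and 58. No paired analysis was possible because the 2 libraries form 1 group.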
